A study of Homo sapiens with 2 samples.

Results

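The prostate kallikreins are represented here by 5 genes, KLK1, KLK2, KLK3, KLK4 and KLK15. They were taken by gene symbol from a deposited table of 21382 genes by a rule that uses no measured value, although earlier results of these data were known when the genes were picked. All 5 were found, each at a single locus. Expression had been measured by RNA-Seq of total RNA in untreated cells of MDA PCa 2b and of RC77 T/E, which are established human prostate cancer (PCa) cell lines. MDA PCa 2b cells were kept in Kaighn's modified Ham's F-12 medium with 20% fetal bovine serum, cholera toxin, epidermal growth factor (EGF), phosphoethanolamine, selenite, insulin and 100 pg/ml hydrocortisone. RC77 T/E cells were kept in Keratinocyte-SFM medium with EGF and bovine pituitary extract, and no serum is named for them. There was 1 library per cell line, so no value has a replicate error, no difference between the lines has a replicate check, and no test was made. Cell line and culture medium cannot be told apart in this design.

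Kallikreins are secreted serine proteases that are made as inactive precursors and switched on by removal of a short propeptide. Their genes lie side by side on chromosome 19. KLK3 encodes prostate-specific antigen (PSA), which liquefies semen by cutting semenogelins and is measured in blood as a marker of the prostate. KLK2 encodes a trypsin-like protease that can activate the PSA precursor, and KLK4 and KLK15 encode further proteases able to do so. KLK1 encodes tissue kallikrein, which releases kinins from kininogen and is best known from the pancreas, salivary gland and kidney.

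The sequence just upstream of the members is shown because KLK3 and KLK2, which stand next to each other, share much of it. RefSeq promoters on GRCh38.p14 matched 4 of the 5 members. Each sequence holds the 250 bases before the transcription start, written 5′ to 3′ on the strand of the gene. For KLK3 (chr19:50854665-50854914, plus strand) and KLK2 (chr19:50873189-50873438, plus strand), capitals mark runs of at least 12 bases that are identical in both. For KLK4 (chr19:50911396-50911645, minus strand) and KLK15 (chr19:50833575-50833824, minus strand), capitals mark TATAA on either strand.
KLK3: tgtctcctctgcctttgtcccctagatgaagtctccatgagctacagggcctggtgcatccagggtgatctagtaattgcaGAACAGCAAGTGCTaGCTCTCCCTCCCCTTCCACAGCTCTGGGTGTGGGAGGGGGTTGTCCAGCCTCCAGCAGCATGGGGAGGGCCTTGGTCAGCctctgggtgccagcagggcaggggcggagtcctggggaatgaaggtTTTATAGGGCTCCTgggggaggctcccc
KLK2: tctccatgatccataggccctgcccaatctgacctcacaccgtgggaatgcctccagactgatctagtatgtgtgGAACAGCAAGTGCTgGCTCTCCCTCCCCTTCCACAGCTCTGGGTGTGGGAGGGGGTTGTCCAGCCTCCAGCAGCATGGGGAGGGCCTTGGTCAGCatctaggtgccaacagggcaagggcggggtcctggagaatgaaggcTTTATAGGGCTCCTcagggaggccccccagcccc
KLK4: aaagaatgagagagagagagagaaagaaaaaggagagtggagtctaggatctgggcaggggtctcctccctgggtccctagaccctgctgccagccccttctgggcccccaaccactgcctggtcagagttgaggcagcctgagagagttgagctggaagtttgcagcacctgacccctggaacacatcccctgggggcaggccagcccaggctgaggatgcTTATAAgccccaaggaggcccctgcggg
KLK15: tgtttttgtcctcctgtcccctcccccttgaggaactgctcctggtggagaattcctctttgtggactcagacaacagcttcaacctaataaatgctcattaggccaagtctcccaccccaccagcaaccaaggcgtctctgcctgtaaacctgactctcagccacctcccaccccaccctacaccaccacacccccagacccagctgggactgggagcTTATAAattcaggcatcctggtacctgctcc
The KLK3 and KLK2 promoters were identical at 211 of 266 aligned positions (79.3%), and their longest shared run was 80 bases. Among the other pairs of these 4 promoters, identity was 47.3% to 51.6% and no shared run exceeded 9 bases. The letters TATAA, searched on both strands, were in all 4 promoters, from position -33 in KLK2 to -27 in KLK3, compared with 18.9% of 35116 human promoters of the same length. The RefSeq starts of KLK2 and KLK15 used here lie inside the deposited loci of these genes. RefSeq lists a second start for KLK4 and for KLK15, and the windows before those did not hold these letters. A match of letters is a description of the sequence and not evidence of binding in these cells.

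The deposited values are TPM, a transcript abundance scaled by gene length and library total, which keeps no record of depth. In the table, the decimal mark is missing from values that reach 1 TPM and carry 3 or more decimals. It can be put back where the mean and standard error of both lines, also deposited, allow a single position. KLK1 and KLK3 needed no such step, because their values are written with their mark. For KLK2, KLK4 and KLK15 the mark is open, and each of these genes has 3 possible levels in MDA PCa 2b that differ by factors of 10. Every position leaves at least 1 digit before the mark, so none of the possible levels is below 1 TPM.

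KLK3 (ENSG00000142515, chr19:50854915-50860764 of GRCh38) was at 5323 TPM in MDA PCa 2b but listed at 0 for RC77 T/E. In MDA PCa 2b, 24 other genes were above KLK3, with the open decimal marks of all genes at either the lowest or the highest position. Of these 24, 7 were protein-coding, and all 7 encode ribosomal proteins: RPL41, RPS27, RPL37A, RPLP1, RPL13A, RPS18 and RPS28. Among the values as listed, no protein-coding gene other than these 7 stood above KLK3, but a gene listed at 0 by a failed estimate would be missed.

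KLK2 (ENSG00000167751, chr19:50861568-50880567) is listed at 0 in RC77 T/E and was at 5.68, 56.8 or 568 TPM in MDA PCa 2b. Its deposited locus begins 0.804 kb beyond the end of KLK3, on the same strand, and the RefSeq start used for its promoter lies further inside that locus. KLK3 was 937, 93.7 or 9.37 times as high as KLK2 in MDA PCa 2b, according to the position of the mark. The pair is close in sequence, and reads can be shared between them. Of 4929 different 31-base stretches in the annotated KLK3 transcripts (GENCODE release 29), 60 (1.22%) also occurred in a KLK2 transcript, and KLK2 was the only other gene that held any of them. Of 6701 stretches in the KLK2 transcripts, 123 (1.84%) occurred in another gene, among them KLK3, RF00017, CAMK1D and STEAP4. How reads common to KLK2 and other genes were divided is not stated, and their part in the KLK2 level was not tested.

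KLK4 (ENSG00000167749, chr19:50906351-50911395) is listed at 0 in RC77 T/E and was at 4.96, 49.6 or 496 TPM in MDA PCa 2b. KLK15 (ENSG00000174562, chr19:50825289-50837213) is likewise listed at 0 in RC77 T/E and was at 2.03, 20.3 or 203 TPM in MDA PCa 2b. KLK15 overlaps AC011523.1, an antisense transcript on the opposite strand. The libraries were directional, but no source says that the counting used strand, and reads of the antisense transcript cannot be set aside. With 3 possible levels for each gene, the order among KLK2, KLK4 and KLK15 is not determined. KLK3 stood above all of them at every position, and KLK1 below.

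KLK1 (ENSG00000167748, chr19:50819146-50823787) was the only member above 0 in both lines, at 0.453 TPM in MDA PCa 2b, against 0.176 TPM in RC77 T/E. Both values lie under 1 TPM, the threshold used here for an expressed gene. The MDA PCa 2b value was 2.57 times the RC77 T/E value, or 0.31 on the scale of log2(TPM + 1). With depth unknown, no limit of detection can be given for values this low. None of the annotated 31-base stretches of KLK1 occurred in another gene.

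Counted together, 4 of the 5 members were at or above 1 TPM in MDA PCa 2b, where 49.6% of all 21382 genes were. In RC77 T/E this was true of 0 of the 5 members, and of 52.8% of all genes. Being listed at 0 in RC77 T/E applied to 4 of the 5 members and to 26.8% of all genes. In MDA PCa 2b, 0 of the 5 members and 27.0% of all genes are listed at 0. A level of 1 TPM or more in MDA PCa 2b together with 0 in RC77 T/E was found for the same 4 members, KLK2, KLK3, KLK4 and KLK15, and for 188 genes (0.879%) of the whole table. Of these 188 genes, 132 were protein-coding. KLK3 ranked 9 among the 188 and was the highest of the 132 protein-coding genes, below 8 microRNA or snoRNA genes. With a pseudocount of 1 TPM, these 4 members were also at least 2-fold higher in MDA PCa 2b, beside 20.0% of the 11624 genes whose mean reached 1 TPM. They reached that mean through MDA PCa 2b alone, and KLK1 did not reach it. The median log2 ratio of MDA PCa 2b to RC77 T/E over the 5 members was 2.58 at the lowest positions of the mark, compared with 0 over all 21382 genes and 0.15 over the 11624. For members listed at 0 this ratio rests on the pseudocount and is no measure of fold. The summed TPM of the 5 members was 5336 to 6590 in MDA PCa 2b, of which KLK3 made up 99.8% to 80.8%, and 0.176 in RC77 T/E.

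A value of exactly 0 in this table need not mean that a transcript was absent. Of 20 genes used by every cell, 19 were at 1 TPM or more in both lines, but EEF1A1, which encodes a translation elongation factor needed in every cell, is listed at 0 in MDA PCa 2b and was at 2393 TPM in RC77 T/E. For this reason the 4 members are described as listed at 0 in RC77 T/E, and no fold is given for them.

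Along the chromosome, the members formed the start of a row of 16 kallikrein genes, 265.1 kb long. MDA PCa 2b had the higher value up to KLK4, and RC77 T/E from KLK5 to KLK12. KLK13 and KLK14 were again higher in MDA PCa 2b. Every kallikrein gene after KLK4 was under 1 TPM in both lines. From KLK1 onward the order is KLK15, KLK3, KLK2, the pseudogene KLKP1 and KLK4, followed by KLK5 to KLK14 in numerical order. The 5 consecutive genes from KLK15 to KLK4 were at or above 1 TPM in MDA PCa 2b and are listed at 0 in RC77 T/E. KLKP1, which lies between KLK2 and KLK4 and was not among the members, was at 1.55 TPM in MDA PCa 2b, with its mark fixed. The next 5 genes, KLK5 to KLK9, are listed at 0 in MDA PCa 2b and were above 0 in RC77 T/E, a combination met by 5.73% of all genes. KLK5, the first of them, begins 31.9 kb beyond the end of KLK4.

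**Figure D1:**
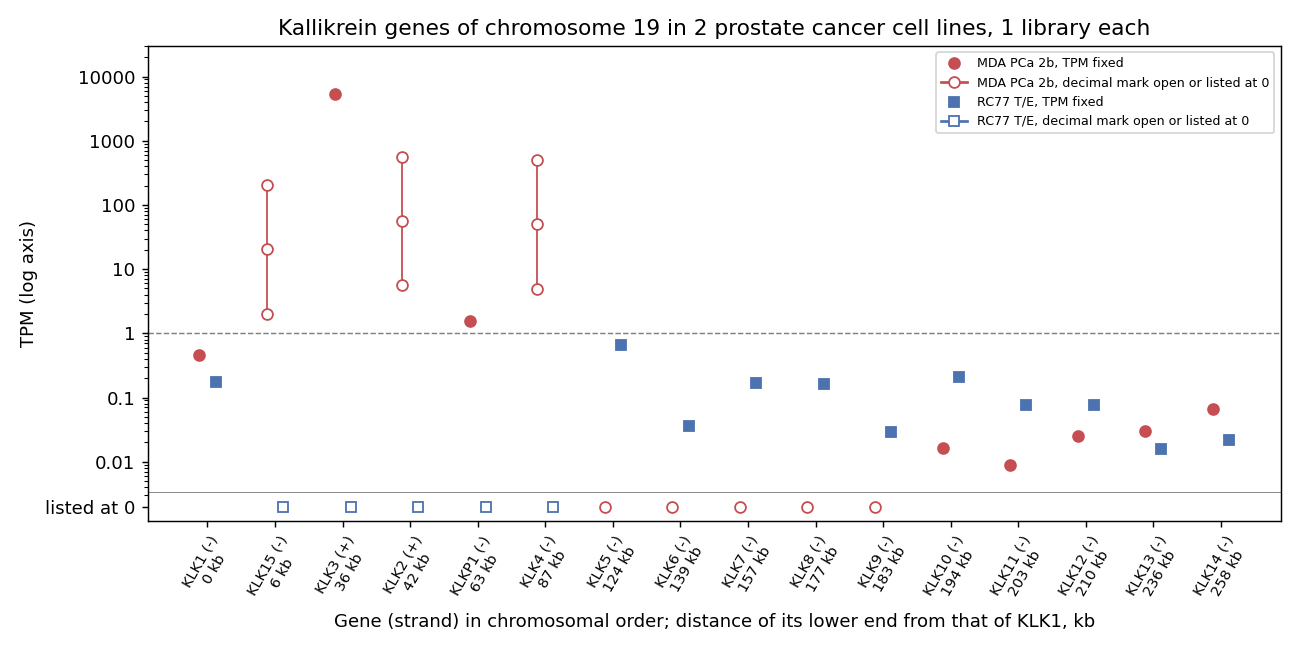
TPM (log axis) of the 16 kallikrein genes of chromosome 19 in chromosomal order, with the distance from KLK1 in kb, in MDA PCa 2b (circles) and RC77 T/E (squares), 1 library each. Joined open symbols are the possible values of a gene whose decimal mark is open, open symbols in the bottom row are genes listed at 0, and the dashed line is 1 TPM. KLK3 stands highest at 5323 TPM in MDA PCa 2b, KLK15 to KLK4 are at 0 in RC77 T/E, and KLK5 to KLK9 are at 0 in MDA PCa 2b.

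The 10 epithelial kallikreins KLK5 to KLK14, proteases better known from skin and other squamous epithelia, stayed under 1 TPM in both lines. In RC77 T/E all 10 were above 0, from 0.0158 TPM for KLK13 to 0.662 TPM for KLK5. In MDA PCa 2b the highest was KLK14, at 0.0655 TPM. RC77 T/E had the higher value for 8 of the 10 genes, and MDA PCa 2b for KLK13 and KLK14. Over all genes, 37.4% had the higher value in RC77 T/E. In MDA PCa 2b, 41.3% of all genes and all 5 prostate kallikreins had the higher value. The directions among KLK5 to KLK14 rest on values under 1 TPM in single libraries and were not tested. Several of these genes overlap antisense transcripts, and KLK8 and KLK9 both overlap AC011473.4 on their own strand.

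Beyond the kallikreins, 21 further genes of the table lie within 300 kb of the cluster. Of these, 6 were at or above 1 TPM in MDA PCa 2b, beside 49.6% of all genes. In RC77 T/E 5 were, beside 52.8%. C19orf48, which lies before KLK1, was at 33.6 or 336 TPM in MDA PCa 2b, against 5.25 or 52.5 TPM in RC77 T/E, 6.40 times as high in MDA PCa 2b at either position. SNORD88C, a small nucleolar RNA gene inside it, was at 3926 and 2425 TPM, and SNORD88B at 4102 TPM in MDA PCa 2b but listed at 0 for RC77 T/E. On the far side of KLK14, the ratio of MDA PCa 2b to RC77 T/E was 1.78 for CTU1, which takes part in tRNA modification, 6.27 for VSIG10L, and 2.19 for ETFB, a subunit of the electron transfer flavoprotein. Genes on both sides of the cluster were therefore measured above 1 TPM in both lines. Of the 21, 9 are listed at 0 in both lines, beside 4550 of all 21382 genes.

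The genes nearest to KLK3 in level over both lines were DAPL1, PRAC1, GDF15, HLA-DRA and AZGP1, by distance on the log2(TPM + 1) scale among 11160 protein-coding genes with a fixed decimal mark. The comparison covers 2 libraries only. DAPL1 was at 2183 TPM in MDA PCa 2b, against 0.307 TPM in RC77 T/E, at a distance of 1.34. PRAC1, a gene of prostate and distal colon, was at 1912 TPM and is listed at 0, at a distance of 1.48. GDF15, a stress-induced cytokine, was at 2599 and 1.93 TPM, at a distance of 1.86. HLA-DRA, an MHC class II chain, was at 1002 TPM and is listed at 0, and AZGP1, a secreted zinc-binding glycoprotein, was at 591 and 0.0636 TPM, at distances of 2.41 and 3.17. KLK3 was thus separated from its nearest neighbour by more than 1 log2 unit. For KLK2 and KLK4 the nearest genes depended on the position of the mark. At the highest position they were AZGP1, TMPRSS2 and CLDN3 for KLK2, and TMPRSS2, CLDN3 and AZGP1 for KLK4. At the middle position they were CEACAM20, C2orf72 and FAM174B for KLK2, and CPLX3, LMAN1L and ARHGAP6 for KLK4. At the lowest they were IP6K3, UNC80 and PIGR for KLK2, and PIGR, CAPN13 and APCDD1 for KLK4. For KLK15 the nearest were CRYM and FOLH1 at the highest position, HGD and ALOX15 at the middle one, and MCF2L and ATOH8 at the lowest.

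**Figure D2:**
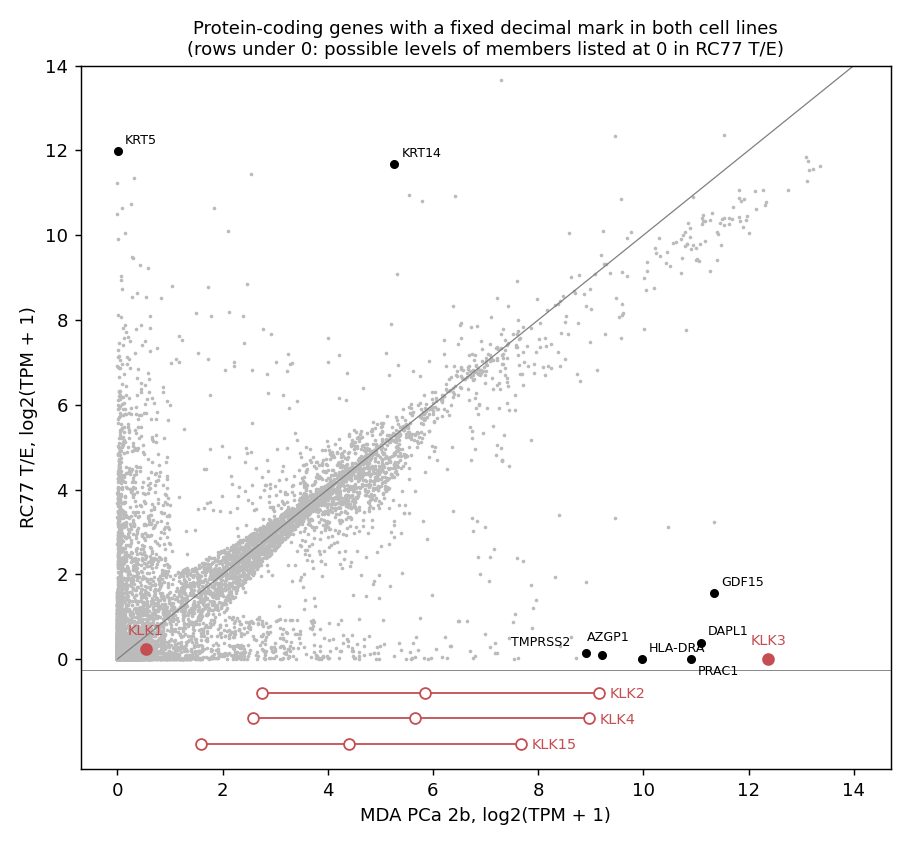
Levels of 11160 protein-coding genes whose decimal mark is fixed, as log2(TPM + 1) in MDA PCa 2b (horizontal) and in RC77 T/E (vertical), 1 library each, with the line of equal levels; the bounds of the grey cloud reflect which marks could be fixed. Red circles are the members, and the joined open circles under 0 are the possible MDA PCa 2b levels of KLK2, KLK4 and KLK15, which are at 0 in RC77 T/E. KLK3 lies at the far lower right, beyond DAPL1 and PRAC1.

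Both lines are labelled prostate cancer cells, and epithelial keratins were present in both, KRT18 at 320 TPM in MDA PCa 2b, against 325 TPM in RC77 T/E. Of the luminal markers KRT8, KRT18 and HOXB13, 3 were at or above 1 TPM in MDA PCa 2b, against 2 in RC77 T/E, where HOXB13 is listed at 0. Of 4 basal markers (KRT5, KRT14, KRT15 and TP63), 2 reached 1 TPM in MDA PCa 2b, against 4 in RC77 T/E. Of all genes, 49.6% reached this level in MDA PCa 2b, against 52.8% in RC77 T/E. Lists of 3 and 4 genes are too short for such counts to set the lines apart. The summed level of the luminal markers was 363 to 1014 TPM in MDA PCa 2b, against 357 to 643 TPM in RC77 T/E, and that of the basal markers 39.9 TPM and 7559 to 7605 TPM. KRT5 and KRT14, the keratins that define basal cells, were at 4027 and 3255 TPM in RC77 T/E, and at 0.00435 and 37.4 TPM in MDA PCa 2b. The part of these marker differences in the kallikrein levels was not tested.

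Among steroid receptors and luminal transcription factors of the prostate, the pioneer factor FOXA1 was at 194 TPM in MDA PCa 2b, against 4.19 TPM in RC77 T/E. FOXA1 overlaps TTC6 on the opposite strand, and GATA2 overlaps GATA2-AS1. GATA2 was at 110.0 and 0.0596 TPM, and the ETS factor SPDEF at 236 and 0.656 TPM. HOXB13, a homeobox factor, was at 3.02, 30.2 or 302 TPM in MDA PCa 2b but listed at 0 for RC77 T/E. These 4 genes were all higher in MDA PCa 2b, as the 4 kallikreins were. The glucocorticoid receptor gene NR3C1 went the other way, at 3.61 or 36.1 TPM in MDA PCa 2b, against 16.8 or 168 TPM in RC77 T/E, 4.66 times as high in RC77 T/E. PGR, the progesterone receptor gene, was at 9.96e-10 TPM in MDA PCa 2b but listed at 0 for RC77 T/E. Of the 5 genes whose mean reached 1 TPM, 4 were at least 2-fold higher in MDA PCa 2b, beside 20.0% of all genes with such a mean, and 1 in RC77 T/E, beside 19.4%. GATA2, HOXB13 and SPDEF reached that mean through MDA PCa 2b alone. The median log2 ratio of all 6 genes was 3.62, compared with 0 over all genes.

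The proteases that can activate kallikrein precursors were divided between the lines. TMPRSS2, a membrane protease of luminal cells, was at 483 TPM in MDA PCa 2b, against 0.108 TPM in RC77 T/E. HPN, which encodes hepsin, was at 10.4 or 104 TPM in MDA PCa 2b but listed at 0 for RC77 T/E. MMP20, the enamel protease that activates KLK4 in developing teeth, was at 11.1 or 111 TPM in MDA PCa 2b but listed at 0 for RC77 T/E. MMP20 overlaps the antisense transcript AP000851.1 and HPN overlaps HPN-AS1, whose reads cannot be set aside. CTSC, which encodes cathepsin C and can also activate KLK4, was at 0.0814 TPM in MDA PCa 2b, against 169 TPM in RC77 T/E. PLAU, the urokinase gene, which overlaps C10orf55 on the opposite strand, was at 0.373 and 236 TPM. ST14, which encodes matriptase, was at 12.2 or 122 TPM in MDA PCa 2b, against 7.35 or 73.5 TPM in RC77 T/E, a ratio of 1.66. Of the 6 genes on this list whose mean reached 1 TPM, 3 were at least 2-fold higher in MDA PCa 2b, beside 20.0% of all genes with such a mean, and 2 in RC77 T/E, beside 19.4%. TMPRSS2, HPN and MMP20 reached that mean through MDA PCa 2b alone, and CTSC and PLAU through RC77 T/E alone. The median log2 ratio of all 7 genes was 0.66.

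Most inhibitors of kallikreins were under 1 TPM in both lines. Of 11 genes, 2 were at or above 1 TPM in MDA PCa 2b, beside 49.6% of all genes. In RC77 T/E 3 were, beside 52.8%. SERPINB6, an intracellular serpin that can bind the KLK2 protease, was at 65.3 or 653 TPM in MDA PCa 2b, against 51.0 or 510 TPM in RC77 T/E, a ratio of 1.28 at either position. SERPINA3, the antichymotrypsin that carries most PSA in blood, was at 0.302 and 1.48 TPM. SERPINA5, the protein C inhibitor of semen, and SERPINA4, the inhibitor of tissue kallikrein, are listed at 0 in both lines, as is PZP. SPINK5, an inhibitor of the epithelial kallikreins of skin, was at 7.01 TPM in MDA PCa 2b, against 0.180 TPM in RC77 T/E. SERPING1, the C1 inhibitor gene, was at 0.0119 TPM in MDA PCa 2b, against 2.13 TPM in RC77 T/E. Of the 3 inhibitor genes whose mean reached 1 TPM, 1 was at least 2-fold higher in each line, SPINK5 in MDA PCa 2b and SERPING1 in RC77 T/E.

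Of 13 genes for substrates and downstream receptors, 8 had a mean that reached 1 TPM. Of these 8, 1 was at least 2-fold higher in MDA PCa 2b, beside 20.0% of all genes with such a mean, and 5 in RC77 T/E, beside 19.4%. These 5, PTHLH, PLAUR, F2R, BDKRB1 and BDKRB2, reached that mean through RC77 T/E alone. The median log2 ratio of all 13 was -0.89. The single gene was IGFBP3, an insulin-like growth factor binding protein that PSA cleaves, at 319 TPM in MDA PCa 2b, against 2.85 TPM in RC77 T/E. The semenogelin genes SEMG1 and SEMG2, whose products are made in the seminal vesicle, were at 0.108 and 0.0139 TPM in MDA PCa 2b, and SEMG1 was at 0.00802 TPM in RC77 T/E. FN1, which encodes fibronectin, was at 873 and 1078 TPM. PTHLH, the gene of a parathyroid hormone-related protein that PSA can cleave, was at 0.0206 TPM in MDA PCa 2b, against 174 TPM in RC77 T/E. PLAUR, the urokinase receptor gene, was at 0.329 and 52.9 TPM. The protease-activated receptor genes F2R and F2RL1 were at 0.521 and 12.7 TPM in MDA PCa 2b, against 15.1 and 24.3 TPM in RC77 T/E. For the kinin arm of KLK1, the kinin receptor genes BDKRB1 and BDKRB2 were at 0.476 and 0.0322 TPM in MDA PCa 2b, against 3.55 and 5.63 TPM in RC77 T/E, and the kininogen gene KNG1 is listed at 0 in both. BDKRB1 and BDKRB2 both overlap a protein-coding gene on their own strand, AL355102.2, and antisense transcripts overlap PTHLH (AC008011.2) and F2R (AC025188.1).

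**Figure D3:**
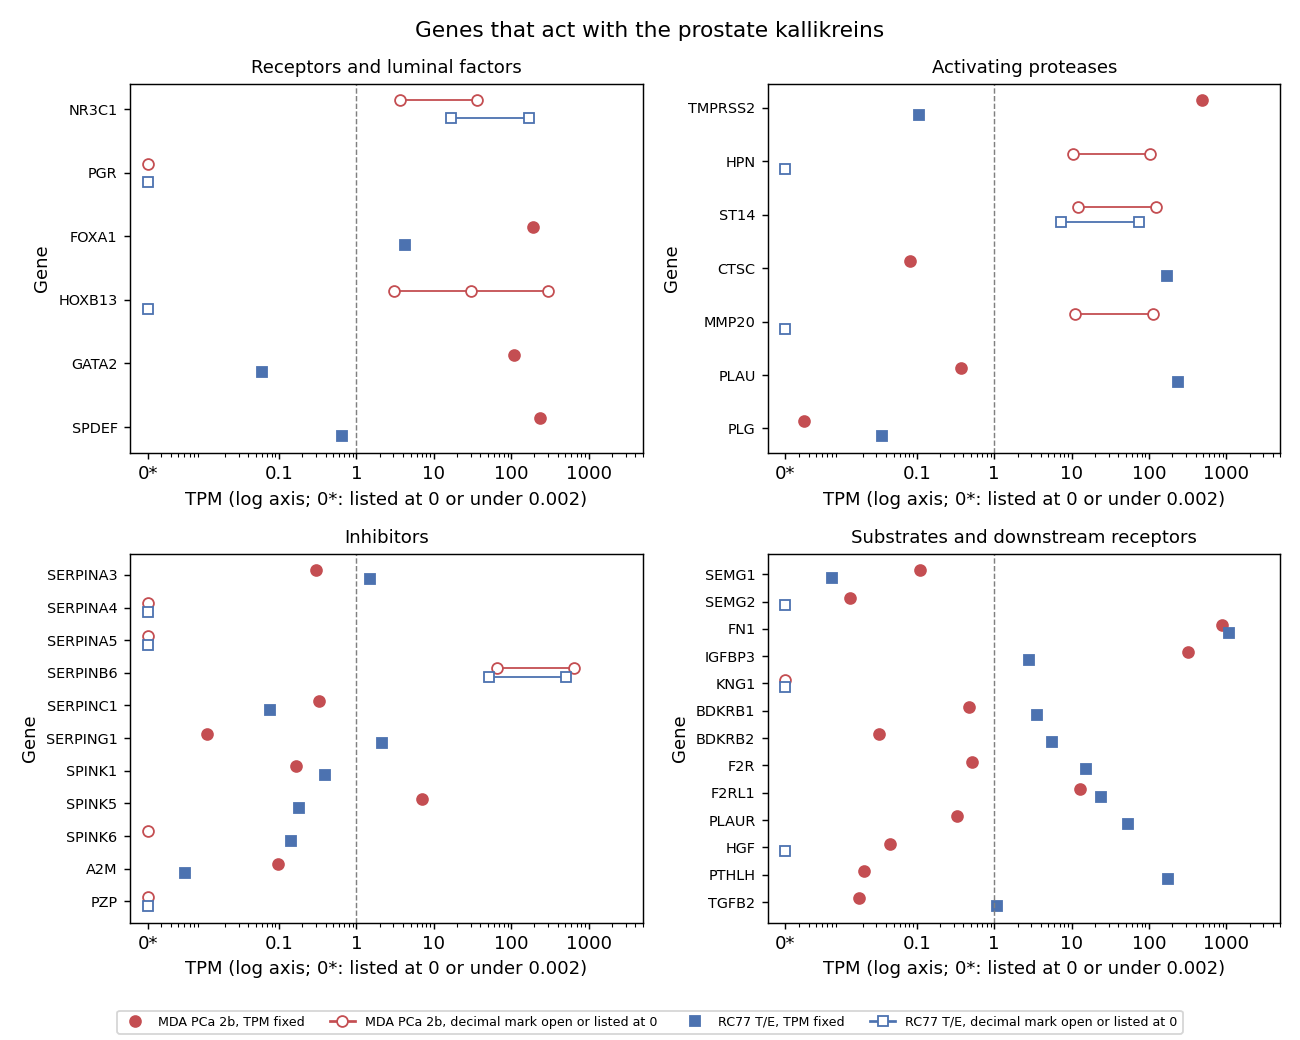
TPM (log axis) of 4 lists of genes that act with the kallikreins, in MDA PCa 2b (circles) and RC77 T/E (squares), 1 library each; joined open symbols are possible values where the decimal mark is open, 0* is listed at 0 or under 0.002 TPM, and the dashed line is 1 TPM. FOXA1, HOXB13, GATA2 and SPDEF lie to the right in MDA PCa 2b, while CTSC, PLAU, PLAUR and PTHLH lie to the right in RC77 T/E.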

How the data were processed

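RNA-Seq libraries of total RNA, paired-end and directional, were made from 2 cell lines, MDA PCa 2b with 1 library, RC77 T/E with 1 library. The authors deposited TPM per locus with the mean and standard error over both lines. The submitters' processing notes name CASAVA, FastQC 0.11.9, Trimmomatic 0.38, Salmon 1.2.0 and GRCh38, and the row identifiers have the Cufflinks form. No read counts were used, so depth and counting error are unknown.

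Lost decimal marks were restored by trying every position with 1 to 3 digits before and at least 3 after the mark, and keeping those that gave the deposited mean and standard error. Of 22791 rows, 16284 kept 1 position. The restoration was tested on 5000 simulated rows, written with the same loss of marks that it assumes. The true pair was among the positions kept in all 5000. Such a test cannot show that the deposited values lost their marks in this way. Sums, counts and ratios use the lowest position. The 87 rows that repeat a locus were dropped, and loci of a symbol were summed. With 1 library per line no test was made. Genes named are the members, the other kallikreins, genes within 300 kb at 1 TPM or more, list genes at 10 TPM or more in a line, receptors and transcription factors, and for each member at 1 TPM or more the 5 nearest protein-coding genes, of which the text gives those most alike. EEF1A1, the ribosomal protein genes and the list genes given with values under 10 TPM in both lines were named after their values were seen. The members and lists were chosen with earlier results of these data known. List counts and sums omit a few genes that are not reported here. Promoters are from RefSeq, and strands, overlaps and transcripts from GENCODE release 29. Python 3.11.15, numpy 2.4.6, Biopython 1.88 and matplotlib 3.10.9 were used.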

Additional observations from a re-analysis of the deposited data

How the results depend on the processing

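No paired analysis was possible because the lines have only 1 library each, and for the same reason no replicate could be left out. The open decimal mark moved the values most. KLK2, KLK4 and KLK15, at 5.68, 4.96 and 2.03 TPM in MDA PCa 2b at the lowest position, were at 568, 496 and 203 TPM at the highest and at 56.8, 49.6 and 20.3 TPM at the middle position, which was added after seeing the data. With a threshold of 5 TPM, 2 in place of 4 members counted as expressed in MDA PCa 2b at the lowest positions, and 4 at the highest. The log2 ratio of KLK1, 0.31 in favour of MDA PCa 2b, was 1.00 with a pseudocount of 0.1 TPM and 0.15 when centred on the median of expressed genes. The median log2 ratio of the 5 members, 2.58, was 5.66 with a pseudocount of 0.1 TPM and 8.96 at the highest positions. None of these settings reversed a direction, but among the members only that of KLK1 was free to change, and only by centring. Its mark is fixed, and a pseudocount added to both values cannot reverse a ratio. The 4 members listed at 0 in RC77 T/E are higher in MDA PCa 2b at every such setting, and they fix the direction of the median. Centring moved the share of 2-fold calls that were higher in MDA PCa 2b from 50.8% to 42.5% over all genes, and left the number of members called at 4. With a pseudocount of 0.1 TPM and no filter on low values, a setting that was not planned, 5 members were called. The share of all genes at that setting is not given. Depth is unknown, so no limit of detection can be given for low values such as those of KLK1.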

Other observations

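Other secretory proteins of the prostate had levels on the same side as the kallikreins. MSMB, TGM4 and AZGP1 were examined, and ACP3 was not analysed here. AZGP1, a secreted glycoprotein of seminal fluid, was at 591 TPM in MDA PCa 2b, against 0.0636 TPM in RC77 T/E. MSMB, which encodes the abundant seminal protein beta-microseminoprotein, was at 2.41, 24.1 or 241 TPM in MDA PCa 2b but listed at 0 for RC77 T/E. TGM4, the prostate transglutaminase that cross-links semenogelins, was at 1.47 and 0.265 TPM. All 3 were thus higher in MDA PCa 2b, as were 41.3% of all genes, in 1 library per line, and the difference was not tested. The mean of TGM4 over both lines did not reach 1 TPM. KLK3 was 9.00 times as high as AZGP1 in MDA PCa 2b.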
